A study of Sus scrofa with 4 samples.

Results

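Adipokine genes are described here, that is, genes for hormones and other signalling proteins that fat cells secrete, together with the 2 receptors of one of them. The genes were chosen by name, with earlier results of these data known, as the protein-coding genes ADIPOQ, LEP, RBP4, RETN, NAMPT, APLN, RARRES2, AGT, ADIPOR1 and ADIPOR2. Of these 10 names, 9 were found among 16192 protein-coding genes, and RETN, the gene for resistin, was not analysed here. The 9 genes were 7 genes for secreted proteins and the receptors ADIPOR1 and ADIPOR2.

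Adipose tissue acts as an endocrine organ as well as a lipid store. Adiponectin (ADIPOQ) is made almost only by fat cells, is assembled into rings of several molecules in the endoplasmic reticulum and acts through ADIPOR1 and ADIPOR2 on fatty acid oxidation and insulin sensitivity. Leptin (LEP) reports the size of the fat store to the brain, retinol binding protein (RBP4) carries vitamin A in blood, apelin (APLN) and chemerin (RARRES2) act on G protein-coupled receptors in vessels, immune cells and fat, and angiotensinogen (AGT) is the precursor of angiotensin. NAMPT, also called visfatin, is the enzyme that starts NAD salvage inside cells and is also found outside them.

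Subcutaneous preadipocytes, the fibroblast-like precursors of fat cells, were isolated from 3 male Chinese Erhualian piglets of 5 days of age and differentiated in culture. D0 was the confluent culture without hormones. D2 was the culture after 2 days with dexamethasone, 3-isobutyl-1-methylxanthine and insulin (the DMI cocktail), D4 followed 2 further days with insulin, and D8 followed 4 further days in growth medium, for which the study's methods name no added insulin. For each stage, RNA of the 3 animals was mixed in equal parts and made into 1 strand-specific library after removal of rRNA. Without replicates, a difference between stages cannot be told apart from one between 2 libraries, and no p-value is given. Values are FPKM, fragments scaled by gene length and by the fragments counted in the library, which can be compared between genes. A gene was reliably expressed when 3 or more of the 4 libraries had an FPKM of 1 or above, which held for 9191 protein-coding genes. Log2 ratios were taken on FPKM + 0.01, and the 95% intervals, which have no such addition, cover counting error in the reads only and not the difference between cultures or libraries.

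The libraries behind FPKM held between 54128151 and 75387428 fragments. Of the protein-coding genes, 89.4% (D2) to 91.8% (D4) were above 0 in a library. Among the 8 reliably expressed adipocyte markers of 10 listed, all 8 were at least 2-fold higher at D4 than at D0, against 10.4% of all reliably expressed protein-coding genes. Their median log2 ratio was 3.92, and FPKM of the 10 summed to 120.0 (D0), 477 (D2), 1638 (D4) and 1971 (D8). Most of the sum at D4 and D8 was FABP4, with 853 and 1557 FPKM. The 8 fibroblast or preadipocyte markers found of 9 listed summed to 2626 (D0), 3894 (D2), 3621 (D4) and 3155 (D8) FPKM. Most of it was the collagen gene COL1A2 (1987 FPKM at D0 and 2484 at D8), while CD34 stayed at or under 0.391 FPKM. Of the 7 reliably expressed ones, 3 (PDGFRB, DCN and LUM) were at least 2-fold higher and 0 lower at D4 than at D0. The shares of all reliably expressed protein-coding genes were 10.4% and 8.81%. At D8, 3 (PDGFRA, PDGFRB and LUM) were at least 2-fold lower than at D4, against 10.1% of all genes. Fewer cells of a type and less RNA per cell cannot be told apart in such libraries.

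Of the 9 genes, 4 were highest at D4 and lowest at D0, namely ADIPOQ (highest at D8 under the median-ratio scaling described with that gene), AGT, RBP4 and ADIPOR2. Among all reliably expressed protein-coding genes, D4 was the highest stage of 37.3% and, counted separately, D0 the lowest stage of 22.8%. The share with both was not computed, and RBP4 is not among those genes. RARRES2 and, as deposited, NAMPT were highest at D0, ADIPOR1 at D2, and LEP and APLN at D8. Reliable expression was found for 7 of the 9, while LEP and RBP4 stayed under 1 FPKM in every library. The adipokine genes thus did not move as one group, and each is described below with its value in every library.

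**Figure D1:**
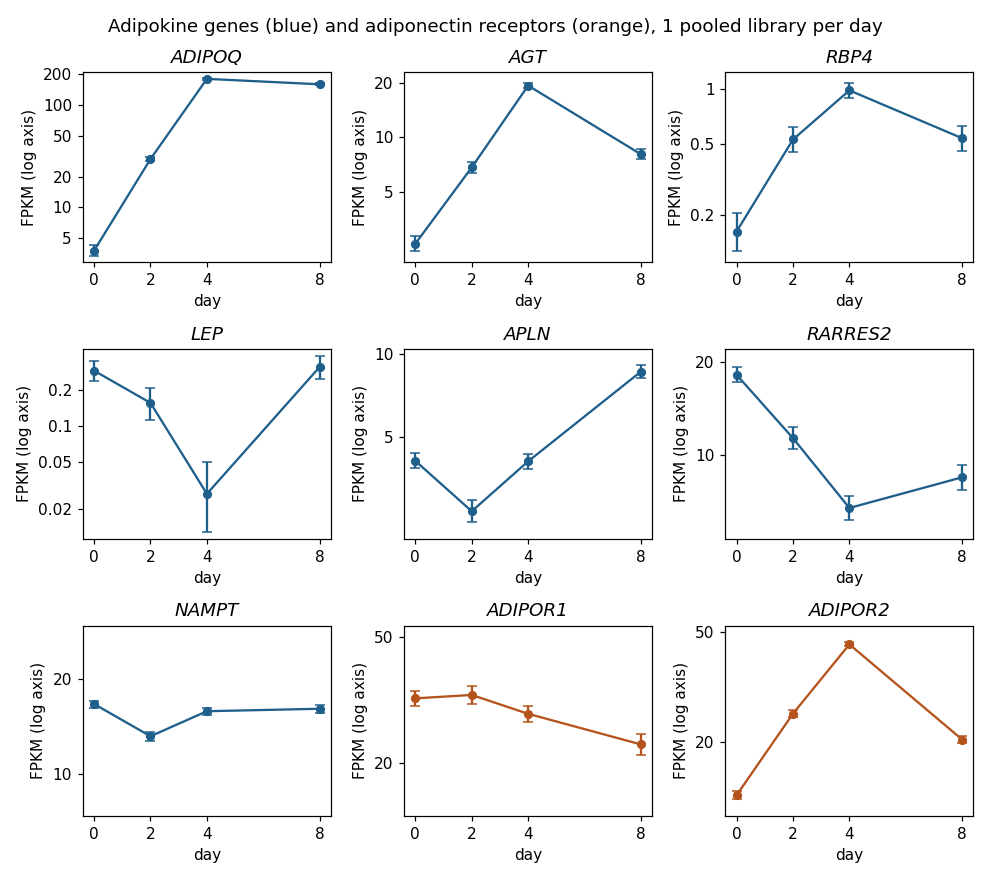
FPKM (log axis, one scale per panel) of 7 adipokine genes (blue) and 2 adiponectin receptors (orange) on days 0, 2, 4 and 8. Each point is 1 pooled library and each bar a 95% interval for counting error. ADIPOQ had 3.80 FPKM at D0 and 178.7 at D4, whereas NAMPT lay between 13.2 and 16.7 at every stage.

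Between D0 and D2, 2 of the 7 reliably expressed genes (ADIPOQ and AGT) were at least 2-fold higher and 0 were at least 2-fold lower, whereas 6.67% of all reliably expressed protein-coding genes were higher and 10.1% were lower by that measure. From D2 to D4, the same 2 genes were again at least 2-fold higher (4.24% of all genes) and 0 were lower (0.838%). From D4 to D8, APLN alone was at least 2-fold higher (4.43%), and AGT and ADIPOR2 were at least 2-fold lower (10.1%). When libraries were instead scaled by the median ratio of all reliably expressed genes, ADIPOR2 no longer passed in that comparison and the shares of all genes became 6.43% higher and 5.94% lower.

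Compared with D0, ADIPOQ, AGT and ADIPOR2 were at least 2-fold higher at D4 (10.4% of all genes) and RARRES2 was at least 2-fold lower (8.81%). At D8, the higher genes were ADIPOQ, APLN and AGT (3.6%) and the lower gene was again RARRES2 (3.68%), which did not pass under the median-ratio scaling, where the shares of all genes were 4.41% and 2.26%. Of the 2 genes that missed the expression filter, RBP4 was at least 2-fold higher than at D0 at D2, D4 and D8, and LEP was at least 2-fold lower at D4 than at D2 and D0 and at least 2-fold higher at D8 than at D4. The median log2 ratio of the 7 genes was 0.04 from D0 to D2, 0.60 from D2 to D4, -0.18 from D4 to D8, -0.01 from D0 to D4 and 0.67 from D0 to D8. Over all reliably expressed protein-coding genes, the medians of the same 5 comparisons were -0.03, 0.09, -0.21, 0.06 and -0.18.

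**Figure D2:**
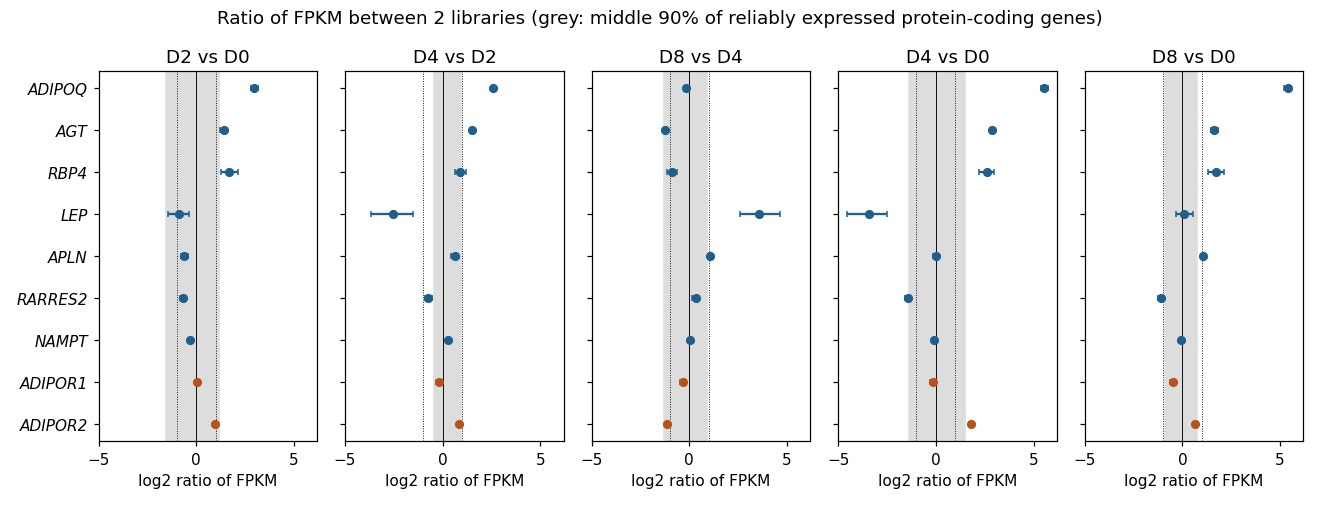
Log2 ratio of FPKM between 2 libraries (horizontal axis) for the 9 genes in 5 comparisons, with 95% intervals for counting error. The grey band holds the 5th to 95th percentile of all reliably expressed protein-coding genes and dotted lines mark a 2-fold difference. ADIPOQ lies outside the band in 4 comparisons and inside it for D8 vs D4, at -0.18.

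ADIPOQ (gene 397660, chromosome 13, 124633906 to 124646237, plus strand, Sscrofa11.1 build) had the widest range of the 9 genes. Its FPKM was 3.80 (D0), 29.6 (D2), 178.7 (D4) and 158.2 (D8), from 282, 1604, 13087 and 8435 reads. Between its lowest and its highest library the level differed 47.0-fold, and the gene moved from rank 6546 of the 16192 protein-coding genes in the D0 library to rank 1691 (D2), 316 (D4) and 360 (D8). The log2 ratio was 2.96 (interval 2.78 to 3.15) from D0 to D2 and 2.59 (2.52 to 2.67) from D2 to D4. The first step spans the days with the full cocktail and the second those with insulin. At D4 against D0 the log2 ratio was 5.55 (5.39 to 5.73), above that of 99.8% of all reliably expressed genes.

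From D4 to D8, adiponectin mRNA was nearly level, with 88.5% of the D4 value kept at D8. The log2 ratio of -0.18 (-0.22 to -0.14) lay beside a median of -0.21 over all genes, and with the median-ratio scaling it was 0.04, so the highest stage was D4 as deposited and D8 under that scaling. Over the same interval, 5 of the 8 reliably expressed adipocyte markers were at least 2-fold lower, with a median of -1.13, against 10.1% of all genes (5.94% under the median-ratio scaling, where PPARG no longer passed at -0.80). PLIN1, which coats the lipid droplet, was one of them (FPKM 2.28, 36.1, 214.7 and 90.3 at D0, D2, D4 and D8), while FABP4, the fatty acid carrier of fat cells, reached 1557 FPKM at D8 from 853 at D4. The markers that missed the filter were also higher at D8, CIDEC with 54.6 FPKM against 5.01 and PLIN4 with 4.76 against 2.65. Apart from FABP4, CIDEC and PLIN4, the listed adipocyte markers were all lower at D8 than at D4. The sum of all 10 was higher at D8, as given above, but most of it was FABP4.

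AGT (gene 100157073, chromosome 14, 59643030 to 59656835, plus strand) followed the same order up to D4. Its FPKM was 2.58 (D0), 6.81 (D2), 19.2 (D4) and 8.04 (D8), from 442, 850, 3250 and 988 reads. Angiotensinogen mRNA was therefore lowest in preadipocytes, and D4 stood apart from the other 3 stages. The log2 ratio was 1.40 (1.23 to 1.57) from D0 to D2, 1.5 (1.39 to 1.61) from D2 to D4 and -1.26 (-1.36 to -1.16) from D4 to D8. In contrast to ADIPOQ, AGT kept only 41.8% of its D4 level at D8, yet D8 was still 3.11-fold above D0 (log2 1.64, 1.48 to 1.80).

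RBP4 (gene 397124, chromosome 14, 105037360 to 105044552, minus strand) had the same shape at a level under the filter. Its FPKM was 0.162 (D0), 0.527 (D2), 0.987 (D4) and 0.535 (D8), from 68, 161, 408 and 161 reads. The D4 library was highest, D2 and D8 lay at nearly the same level, and D0 was lowest, with no overlap of the counting intervals of D0 with those of the other stages. The log2 ratio to D0 was 1.64 at D2, 2.53 at D4 and 1.66 at D8. Without the addition of 0.01 these were 1.70 (1.28 to 2.13), 2.61 (2.23 to 3.00) and 1.72 (1.30 to 2.15). With 1 in place of 0.01 they were 0.39, 0.77 and 0.40, so that none reached 2-fold on that scale.

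AGT and RBP4 are also known as products of the liver. Of 5 hepatocyte markers listed, 3 were found, and their FPKM summed to 1.94 (D0), 4.51 (D2), 8.20 (D4) and 3.73 (D8). APOA1, an apolipoprotein, was reliably expressed and like AGT and RBP4 highest at D4, with 1.37, 1.41, 6.52 and 3.07 FPKM, and FGB, a fibrinogen chain, had 0.533, 3.06, 1.68 and 0.631 FPKM. Albumin (ALB), the defining product of hepatocytes, stayed under 0.1 FPKM in every library. The part of such cells in the levels of AGT and RBP4 was not tested.

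LEP (gene 396832, chromosome 18, 20106867 to 20124071, minus strand) was low throughout and, up to D4, went the other way from ADIPOQ. Leptin FPKM was 0.291 (D0), 0.156 (D2), 0.0269 (D4) and 0.314 (D8), from 110, 43, 10 and 85 reads. Its lowest value was that of D4 and its highest that of D8, and the D0 and D8 libraries could not be separated at this depth, with a log2 ratio of 0.10 (-0.32 to 0.53). From D0 to D4 the log2 ratio was -3.03, or -3.44 (-4.54 to -2.51) without the addition of 0.01, and from D4 to D8 it was 3.13, or 3.55 (2.60 to 4.66) without it. At such low FPKM the size depends on the addition, and with 1 in place of 0.01 the D4 to D0 value was -0.33. Leptin ranked between 11054 and 13713 of 16192 genes, far below adiponectin at every stage.

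APLN (gene 100625006, chromosome X, 106236746 to 106246563, minus strand), the gene for apelin, was as deposited the only reliably expressed gene of the set with its highest level at D8, where ADIPOQ and NAMPT joined it under the median-ratio scaling. Its FPKM was 4.11 (D0), 2.70 (D2), 4.09 (D4) and 8.65 (D8), from 985, 472, 968 and 1490 reads. D0 and D4 were not separated by counting error (log2 -0.01, -0.13 to 0.12), D2 was below them and D8 above. The log2 ratio was -0.60 (-0.77 to -0.45) from D0 to D2, 0.60 (0.44 to 0.76) from D2 to D4 and 1.08 (0.96 to 1.20) from D4 to D8.

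RARRES2 (gene 100141314, chromosome 18, 55903693 to 55906976, minus strand), the gene for chemerin, was the only reliably expressed gene of the set that was at least 2-fold lower than in preadipocytes. Its FPKM was 18.2 (D0), 11.3 (D2), 6.74 (D4) and 8.47 (D8), from 1314, 598, 481 and 440 reads. The log2 ratio was -0.68 (-0.82 to -0.54) from D0 to D2 and -0.75 (-0.93 to -0.57) from D2 to D4, with intervals that overlap, and 0.33 (0.14 to 0.52) from D4 to D8. At D4 the gene held 37.1% of its D0 level, a log2 ratio of -1.43 (-1.58 to -1.28). The step from D2 to D4 is the more unusual one, since it was lower than that of all but 1.63% of reliably expressed genes.

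NAMPT (gene 595123, chromosome 9, 106119896 to 106162126, minus strand) changed least, by 1.26-fold between its lowest and highest library. FPKM was 16.7 (D0), 13.2 (D2), 15.8 (D4) and 16.1 (D8), from 6015, 3469, 5630 and 4172 reads. D2 was the lowest (log2 -0.34 to D0, -0.40 to -0.28), D4 lay slightly below D0 (-0.08, -0.13 to -0.02), and D8 was not separated from D0 or D4 by counting error. The highest stage was D0 as deposited and D8 under the median-ratio scaling, where D8 against D0 was 0.11 in place of -0.05.

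The order of the secreted-protein genes by level changed with the stage. At D0, RARRES2 (18.2) and NAMPT (16.7) were the most abundant in FPKM, and ADIPOQ (3.80) was below APLN (4.11). At D2 ADIPOQ was already first with 29.6, ahead of NAMPT with 13.2 and RARRES2 with 11.3. At D4 the order was ADIPOQ (178.7), AGT (19.2), NAMPT (15.8), RARRES2 (6.74), APLN (4.09), RBP4 (0.987) and LEP (0.0269).

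ADIPOR1 (gene 404695, chromosome 10, 24907491 to 24923540, minus strand) and ADIPOR2 (gene 404694, chromosome 5, 68755789 to 68807247, plus strand) encode membrane proteins of the same family, which bind adiponectin at the cell surface. ADIPOR1 FPKM was 32.1 (D0), 32.9 (D2), 28.7 (D4) and 22.9 (D8), from at least 1280, 957, 1128 and 657 reads. The length behind these values, 529 bases, is short for the gene, so that its reads may be a whole multiple of these numbers and its intervals narrower than given. Its log2 ratio to D0 was 0.04 (-0.09 to 0.16) at D2, -0.16 (-0.28 to -0.05) at D4 and -0.48 (-0.62 to -0.35) at D8, so the level stayed within 1.43-fold over the 4 libraries and was lowest at D8.

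ADIPOR2 FPKM was 12.8 (D0), 25.2 (D2), 44.9 (D4) and 20.3 (D8), from 3701, 5327, 12821 and 4223 reads. D4 was the highest and D0 the lowest library, and the intervals of the 4 did not overlap. The log2 ratio was 0.98 (0.92 to 1.04) from D0 to D2, which is 1.97-fold and just under the 2-fold limit, and it was 1.02 under the median-ratio scaling and 1.09 when all protein-coding genes were scaled to one total. It was 0.83 (0.79 to 0.88) from D2 to D4 and -1.14 (-1.20 to -1.09) from D4 to D8, or -0.93 under the median-ratio scaling. At D8, 45.3% of the D4 level was left.

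Within a library, where scaling cancels out, the ratio of ADIPOR1 to ADIPOR2 in FPKM started at 2.51 (2.35 to 2.67) in the D0 library, came to 1.30 (1.22 to 1.40) by D2 and to 0.638 (0.600 to 0.678) by D4, and was 1.13 (1.04 to 1.23) by D8. In FPKM, ADIPOR1 was thus higher in preadipocytes, at D2 and by a small margin at D8, and ADIPOR2 was higher at D4. Gene length does not cancel out, so this ranking and the shares and sum below depend on the lengths behind FPKM. These were 529 bases for ADIPOR1, short as given above, and 3837 for ADIPOR2. ADIPOR2 had more recovered reads in every library, though those of ADIPOR1 may be a whole multiple. The direction of change of the ratio between libraries does not depend on the lengths. The share of ADIPOR2 in the sum of both was 28.5% (D0), 43.4% (D2), 61.0% (D4) and 47.0% (D8). The sum itself in FPKM was 44.9 (D0), 58.2 (D2), 73.6 (D4) and 43.3 (D8). In FPKM, ligand and receptor transcripts therefore differed at D8, where ADIPOQ was near its D4 level and the summed receptors were near their D0 level. Whatever the lengths, ADIPOR1 and ADIPOR2 were each lower at D8 than at D4 (log2 -0.32 and -1.14).

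**Figure D3:**
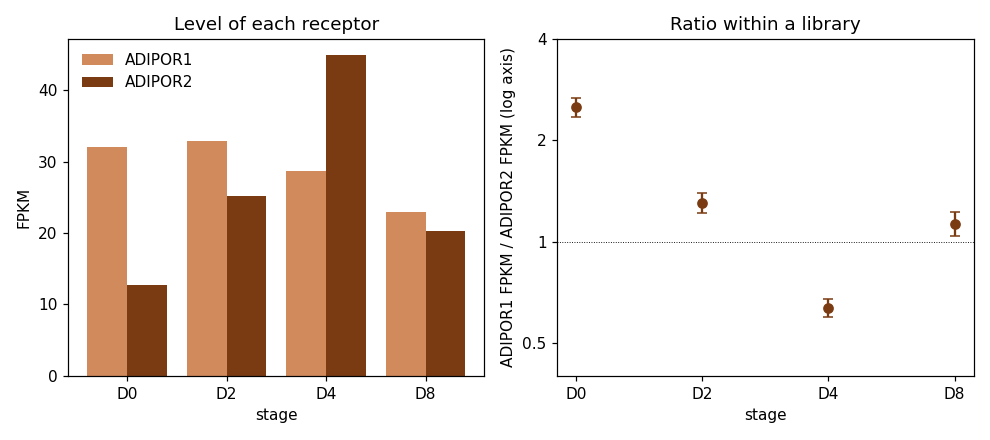
FPKM of ADIPOR1 and ADIPOR2 at each stage (left, bars from 0, 1 library each) and the ratio of ADIPOR1 to ADIPOR2 within each library (right, log axis, bars for the 95% interval of counting error, dotted line at equal levels). The ratio is above 1 at D0, D2 and D8 and is 0.638 at D4, and its position against 1 depends on the gene lengths behind FPKM.

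The other listed genes around adiponectin were steadier than ADIPOQ itself. Of 10 names for a further receptor, adaptors and assembly factors, 9 were found and all 9 were reliably expressed, and their median log2 ratio lay between -0.14 and 0.31 in the 5 comparisons. CDH13, the cadherin that binds large adiponectin rings, had FPKM values of 9.28 (D0), 11.6 (D2), 6.22 (D4) and 5.92 (D8). GSTK1 (DsbA-L), which promotes adiponectin assembly, had 14.1, 52.0, 49.4 and 15.6 FPKM. It was the one gene of the 9 at least 2-fold higher at D2 and D4 than at D0, against 6.67% and 10.4% of all genes. At D8 it was 2-fold or more lower than at D4 (log2 -1.66), against 10.1% of all genes. ERO1A, an oxidase that aids the release of adiponectin from the endoplasmic reticulum, had 29.5, 14.4, 17.5 and 32.5 FPKM. It was at least 2-fold lower at D2 than at D0 (log2 -1.03), against 10.1% of all genes, and missed 2-fold under the median-ratio scaling (-0.99). Under that scaling it was also at least 2-fold higher at D8 than at D4 (log2 1.10 in place of 0.89).

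Receptors of leptin, retinol binding protein, apelin and chemerin were at low levels. LEPR, the leptin receptor, lay between 0.00339 and 0.0628 FPKM, and APLNR, the apelin receptor, between 0 and 0.0723 FPKM. For chemerin, CMKLR1 had 0.114, 0.558, 0.868 and 0.377 FPKM at D0, D2, D4 and D8, GPR1 had at most 0.312 and CCRL2 at most 0.0414. STRA6, the cell-surface receptor for RBP4, was 0.511 FPKM at D0 and at most 0.0521 later. The proposed receptors of resistin were unlike each other, with CAP1 at 43.4, 19.4, 34.1 and 34.2 FPKM and TLR4 at 0.196, 0.462, 0.470 and 0.671 FPKM. These cultures thus held the mRNA of apelin and chemerin at several FPKM and that of their receptors under 1 FPKM.

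**Figure D4:**
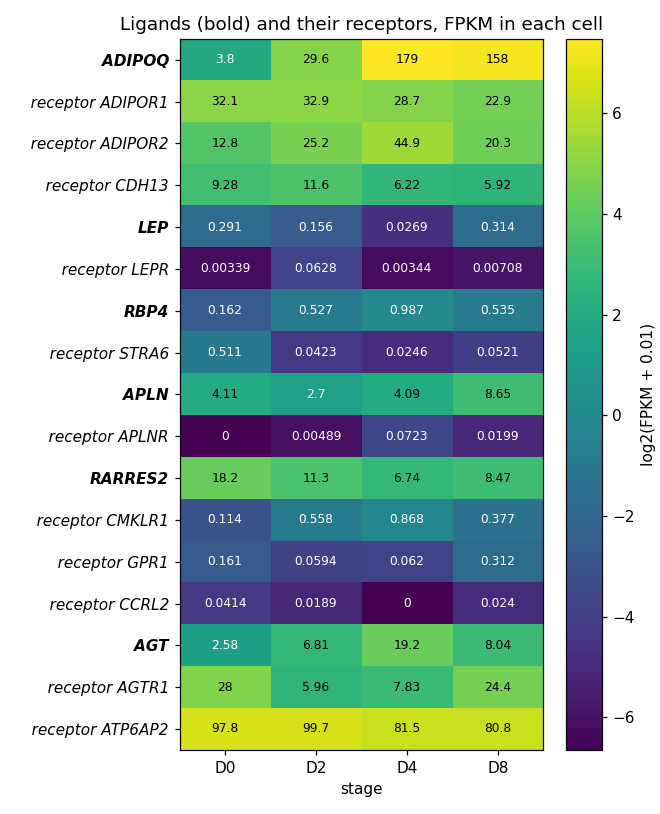
FPKM of 6 secreted-protein genes (bold) and the receptors listed for each (below it) at D0, D2, D4 and D8, coloured by log2(FPKM + 0.01) with the FPKM printed in each cell, 1 library per stage. The rows below AGT are the receptors of angiotensin II (AGTR1) and of (pro)renin (ATP6AP2). These and the adiponectin receptors are at several FPKM or more. The listed receptors of leptin, retinol binding protein, apelin and chemerin are under 1 FPKM in all 4 libraries.

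In the angiotensin system, the receptors found were abundant. AGTR1, the main receptor of angiotensin II, was abundant in preadipocytes and again at D8, with FPKM values of 28.0 (D0), 5.96 (D2), 7.83 (D4) and 24.4 (D8). Its log2 ratio was -2.23 from D0 to D2 and 1.64 from D4 to D8, so receptor mRNA was lower at D2 and D4 than at D0 and D8. ATP6AP2, the (pro)renin receptor, lay between 80.8 and 99.7 FPKM. ACE, the converting enzyme, had between 0.574 and 1.16 FPKM. ANPEP, an aminopeptidase that trims angiotensin peptides, was at least 2-fold higher at D4 than at D0 (log2 1.26) and at least 2-fold lower at D8 than at D4 (-1.30). Of 11 names in this list 8 were found and 6 were reliably expressed, of which 2 were at least 2-fold higher and 1 at least 2-fold lower at D4 than at D0, against 10.4% and 8.81% of all genes. The median of the list was 0.81 and that of all genes 0.06.

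Genes that act downstream of the leptin receptor were expressed although LEPR was nearly absent, and several of them serve other cytokine receptors as well. From D0 to D2, 2 of the 6 reliably expressed genes were at least 2-fold higher (SOCS3 and PTPN1, both inhibitors of JAK signalling) and 1 was lower (JAK2, the receptor-bound kinase), against 6.67% and 10.1% of all genes. SOCS3 had 7.09, 21.1, 11.7 and 1.81 FPKM at D0, D2, D4 and D8, PTPN1 had 5.38, 11.2, 20.1 and 4.74, and JAK2 had 6.03, 2.61, 2.38 and 3.89. From D4 to D8, 3 of the 6 were at least 2-fold lower, namely SOCS3 (log2 -2.68), PTPN1 (-2.08) and the transcription factor STAT3 (-1.24), against 10.1% of all genes (5.94% under the median-ratio scaling). The median of the list was -0.69 and that of all genes -0.21.

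Among genes for retinoid transport, 6 of 9 names were found and 4 were reliably expressed. CRABP2, which delivers retinoic acid to its nuclear receptor, had FPKM values of 32.8 (D0), 1.09 (D2), 1.11 (D4) and 29.9 (D8), a log2 ratio of -4.90 from D0 to D2 and 4.75 from D4 to D8. CRABP1, a related carrier, was lowest at D0 and highest at D4, with 0.502, 1.68, 3.43 and 1.05 FPKM. RARA, a nuclear receptor for retinoic acid, was at least 2-fold lower at D8 than at D4 as deposited (log2 -1.15) but not under the median-ratio scaling (-0.94). In the NAD salvage list, 4 of 6 genes were reliably expressed. As deposited the only one past 2-fold in the 5 comparisons was SIRT1, a deacetylase that uses NAD, at D8 against D4 (log2 -1.07). In that comparison 10.1% of all genes were at least 2-fold lower. Under the median-ratio scaling SIRT1 did not pass (-0.86), and NAPRT, an enzyme that makes NAD from nicotinic acid, did at D8 against D0 (1.09 in place of 0.93).

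A longer list of other secreted adipokines held 41 names, of which 34 were found and 25 were reliably expressed. From D0 to D2, 6 were at least 2-fold higher and 6 lower, against 6.67% and 10.1% of all genes. From D0 to D4, 7 were higher and 11 lower (10.4% and 8.81% of all genes), with a median log2 ratio of -0.92 against 0.06 over all genes. From D2 to D4, 2 were higher (4.24%) and 4 lower (0.838%). From D4 to D8 5 were higher (4.43%) and 6 lower (10.1%), and from D0 to D8 3 were higher (3.6%) and 5 lower (3.68%). Under the median-ratio scaling the number higher was 7 from D0 to D2 (7.09%), 1 from D2 to D4 (3.7%) and 7 from D4 to D8 (6.43%). Most of these 25 genes were thus not above their preadipocyte level at D4.

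At D4 against D0, SFRP5 and PTX3 came nearest to ADIPOQ in size among the reliably expressed genes of this list. SFRP5 is a secreted inhibitor of WNT signalling and PTX3 a pentraxin of innate immunity. Their log2 ratios to D0 were above that of ADIPOQ at D2 (3.947 and 3.925 against 2.96) and below it at D8 (3.794 and 3.043 against 5.377). SFRP5 had 0.306, 4.87, 10.3 and 4.37 FPKM at D0, D2, D4 and D8 (log2 5.03 at D4 against D0, and 1.08 at D4 against D2, or 0.99 under the median-ratio scaling), and PTX3 had 11.3, 171.9, 395.8 and 93.3 (log2 5.13). ANGPTL4, an inhibitor of lipoprotein lipase, had 19.2, 72.2, 57.1 and 8.59 FPKM, so it was at least 2-fold higher at D2 and at least 2-fold lower at D8 than at D0. GRN, the gene for progranulin, was at least 2-fold higher at D2 and D4 than at D0 (log2 1.57 and 2.18).

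On the other side, CCL2, a chemokine that attracts monocytes, had 54.7, 6.50, 6.65 and 21.4 FPKM. GDF15, a stress-induced member of the TGF-beta family, had 3.65, 1.55, 0.261 and 2.20 FPKM, and like LEP it was lowest at D4. IL6 was highest at D2 (8.71 FPKM) and 2.35 FPKM at both D4 and D8, and C1QTNF2, a relative of adiponectin, went from 27.5 FPKM at D2 to 8.07 at D4 and 6.84 at D8. C1QTNF3, a further relative, was lowest at D4 (0.649 FPKM) and highest at D8 (3.54 FPKM). DPP4, a protease released by fat cells, was at least 2-fold lower at D4 than at D0 (log2 -1.74).

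**Figure D5:**
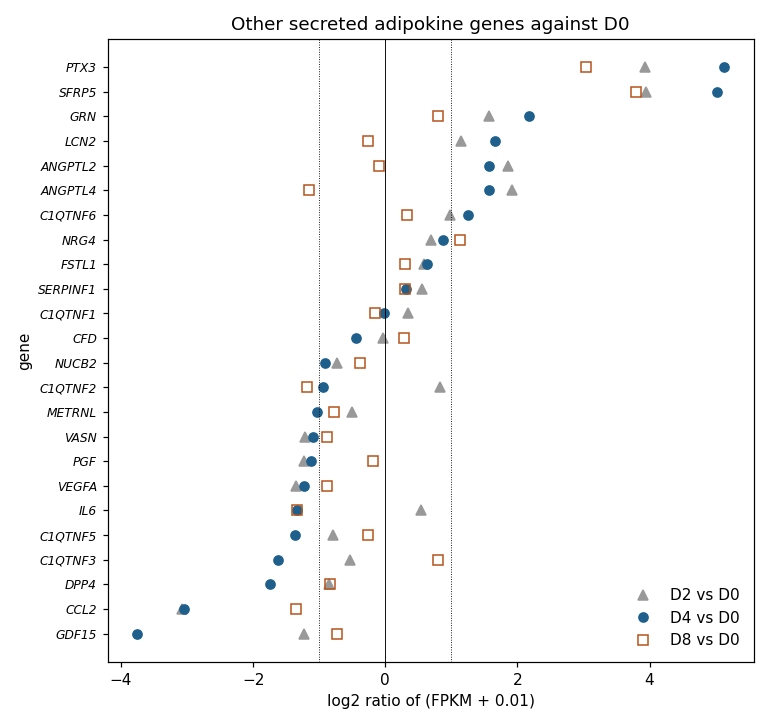
Log2 ratio of FPKM + 0.01 to D0 (horizontal axis) of 24 reliably expressed genes of the list of other secreted adipokines, at D2 (triangles), D4 (filled circles) and D8 (open squares), ordered by the D4 value. Dotted lines mark a 2-fold difference, and at D4 7 of the plotted genes lie beyond it on the higher side and 10 on the lower side.

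Sums of markers of other cell types differed with stage for macrophages, for mesothelial cells and, at far higher levels, for contractile cells. FPKM of 7 macrophage markers summed to 4.36 (D0), 8.96 (D2), 9.70 (D4) and 6.54 (D8), with CD14 the largest part at every stage and ADGRE1 under 0.1 FPKM in every library. CSF1R went the other way, with 0.109, 0.104, 0.0434 and 0 FPKM. CD14 (3.14, 5.64, 7.54 and 2.78 FPKM) and CD163 (0.270, 1.42, 1.01 and 1.38 FPKM) were the 2 reliably expressed ones. Both were at least 2-fold higher at D4 than at D0, against 10.4% of all reliably expressed protein-coding genes. The 2 leukocyte markers found of 5 listed summed to at most 0.150, PTPRC being under 0.1. Of 6 endothelial markers, whose sum was 1.16 to 2.74, VWF, CDH5, TEK and KDR stayed under 0.1. The 6 smooth muscle or pericyte markers summed to 6205 (D0), 664 (D2), 510 (D4) and 4810 (D8). The 4 reliably expressed ones were all at least 2-fold lower at D2 than at D0 (10.1% of all genes) and at least 2-fold higher at D8 than at D4 (4.43%, or 6.43% under the median-ratio scaling). CRABP2, AGTR1 and CCL2 also passed 2-fold in both steps, from D0 to D2 (log2 -4.90, -2.23 and -3.07) and from D4 to D8 (4.75, 1.64 and 1.68). LEP and RARRES2 were also lower at D2 and D4 than at D0 and higher at D8 than at D4. At D2 both missed 2-fold (log2 -0.86 and -0.68), and from D4 to D8 RARRES2 did (0.33). Other listed genes such as VEGFA and GDF15 had the same order, and the share of all genes with it was not computed. The 4 mesothelial markers found summed to 7.36, 10.9, 18.4 and 29.0, most of it KRT8 (4.46, 8.25, 15.8 and 25.1 FPKM), while UPK3B went from 0.119 FPKM at D0 to 0 at D8. The part of these cells in the levels of the adipokine genes was not tested.

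Other RNAs at the adipokine loci were listed as a description, and the share of all genes that hold a circRNA was not computed. Of 8623 circRNAs, which are rings spliced from a downstream to an upstream exon end, 2 lay inside a gene of the set, both inside ADIPOR1 and on its strand. The circRNA ssc_circ_0005011 (chromosome 10, 24910301 to 24911744) was detected at D2 alone with 12 junction reads (87.2 SRPBM, a scale of junction reads over mapped reads), and ssc_circ_0005010 (24908903 to 24912841) at D4 alone with 6 junction reads (35.6 SRPBM). Their absence elsewhere rests on little depth, since a count of 0 allows up to 3 junction reads, which was between 17.8 and 25.2 SRPBM in these libraries. The study kept circRNAs with 2 or more junction reads, and no library lists fewer. A listed 0 may therefore hide 1 read and allow more than 3. The other 8 genes held none, among them ADIPOR2, the longest gene of the set (51459 bases).

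Within 50 kb of the 9 genes, 4 lncRNAs were listed, and the usual number near a gene was not computed. LOC102158991, which lies 43893 bases from ADIPOQ on the opposite strand, had 0, 6, 29 and 33 reads at D0, D2, D4 and D8, or 0, 0.0518, 0.185 and 0.289 FPKM. It was therefore not detected in the library where ADIPOQ was lowest, where a count of 0 allows up to 3 reads. MSTRG.90299, 46842 bases from NAMPT, had 10, 1, 0 and 2 reads, LOC110257533, 18122 bases from LEP, had at most 8 reads, and LOC110255500, which overlaps NAMPT on the opposite strand, had at most 0.0623 FPKM. Genes of other kinds that overlap RBP4 (PDE6C) and ADIPOR2 (CACNA2D4 and the pseudogene LOC102159577) lie on the opposite strand and had at most 0.147 FPKM.

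Profiles over the 4 libraries were compared as centred log2 values between each of the 5 reliably expressed genes with at least a 2-fold range and 4765 other protein-coding genes, with the Euclidean distance as the measure of likeness. ADIPOQ had no gene within a distance of 0.5, and the nearest were AQP3, a channel for water and glycerol (0.518), and SCD, the stearoyl-CoA desaturase (0.668), which had 31.5, 249.5, 1053 and 772 FPKM. For AGT the nearest were ACACA, the acetyl-CoA carboxylase (0.122, with 7.15, 18.7, 51.7 and 24.1 FPKM), and SLC5A6, a vitamin transporter (0.274), and 10 genes lay within 0.5. ADIPOR2 was nearest to EPHX2, an epoxide hydrolase (0.159), and to the mitochondrial carrier SLC25A10 (0.218), among 69 genes within 0.5.

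For APLN the nearest gene was GPD1L, a relative of glycerol-3-phosphate dehydrogenase, at a distance of 0.0333, with 14.4, 9.24, 14.3 and 30.5 FPKM, followed by LOC574051 (0.309), and 7 genes lay within 0.5. RARRES2 was nearest to UGGT2, a glycoprotein folding sensor (0.227), and to the collagen gene COL5A1 (0.248), which had 61.2, 33.5, 21.3 and 31.6 FPKM, among 72 genes within 0.5. With 4 points per profile and 1 library per stage, these distances are a description of these libraries.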

How the data were processed

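RNA of 3 piglets was pooled into 1 strand-specific, rRNA-depleted library per stage. The authors aligned reads to Sus scrofa 11.1 (HISAT2 2.0.5 in the submitters' processing notes) and deposited FPKM for genes and, in the same column, SRPBM for circRNAs found after BWA alignment. The biotype separates the units. Totals and whole reads behind FPKM were computed from the deposited values alone, as the smallest whole numbers in the ratios of FPKM and total, with totals set so that gene lengths were whole. At these totals 94.3% of 400 gene lengths were within 0.02 bases of whole, against 49.3% at the next multiple, and 7 of 22944 features had no solution. The true reads may be a whole multiple, as for ADIPOR1, whose implied length of 529 bases is short, and its intervals are then the widest possible. Intervals are exact (Clopper-Pearson, 95%), and PCR copies are not independent molecules. The procedure was tested on simulated data.

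The filter, the 2-fold limit and the 5 comparisons followed the study, whose read-count test was not repeated because it takes counting as the only error. The adipokine genes and all lists were chosen with earlier results of these data known. Of each list, reliably expressed genes past 2-fold were named, at most 4 per comparison by size, with all receptors, and for each varying gene the 2 nearest profiles (highest FPKM at least 10). Genes of the list of other adipokines named beyond that (GRN and DPP4), NAPRT and the marker genes named were chosen after their values were seen. Some genes that this rule names are not reported here, but stay in the counts and medians of their lists. A planned promoter motif search was not run, as no promoter sequence was used here. Alternatives were other pseudocounts (0.1 and 1), 2 other scalings, no filter and a ratio of 1.5. Python 3.11.15, numpy 2.4.6, pandas 2.3.3, scipy 1.17.1 and matplotlib 3.10.9 were used.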

Additional observations from a re-analysis of the deposited data

How the results depend on the processing

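No paired analysis was possible because each stage has 1 library. Of the 45 log2 ratios of the 9 genes, 40 had an interval without 0, and none that was at least 2-fold changed its sign under another pseudocount (0.1 or 1) or scaling. A pseudocount of 1 moved 19 of them beyond their counting interval, by up to 2.78 for LEP and up to 0.39 for genes other than LEP and RBP4, and a pseudocount of 0.1 moved 4. The median-ratio scaling shifted every gene by 0.21 from D4 to D8 and by 0.16 from D0 to D8 and moved 16, and scaling to one protein-coding total shifted every gene by 0.11 from D0 to D2 and moved 5. The number of genes at least 2-fold lower became 1 for D8 vs D4 and 0 for D8 vs D0 under the median-ratio scaling, and the number higher for D8 vs D4 became 0 with a pseudocount of 1, where APLN was 0.92. With that pseudocount the number higher for D8 vs D0 became 2, with APLN again at 0.92. Under both other scalings ADIPOR2 passed for D2 vs D0, and the number higher became 3. Without the filter, LEP entered, with 1 gene lower for D4 vs D2, 2 higher for D8 vs D4 and 2 lower for D4 vs D0. RBP4 entered as well, with 3 genes higher for D2 vs D0, 4 for D4 vs D0 and 4 for D8 vs D0. At a ratio of 1.5, 3 genes were higher and 2 lower for D2 vs D0, 4 were higher and 1 lower for D4 vs D2, and 4 were higher for D8 vs D0. Depth limits LEP, with 10 reads at D4, and the circRNAs and lncRNAs near these genes.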
